A study of Mus musculus with 4 samples.

Results

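Glycolysis, the lactate shuttle and glycogen were examined through 35 genes in ribosome-bound RNA of astrocytes from mouse brain. The 35 genes are a list by function and symbol, with no threshold on the counts, drawn up with earlier results of these data known: 17 enzymes and regulators of glycolysis, 10 genes for glucose and lactate carriers, lactate dehydrogenase and the entry of pyruvate into mitochondria, and 8 genes for making and breaking down glycogen. They are 35 of the 55471 genes counted in each library, and all 35 were abundant enough to be tested. The groups compared were 2 libraries labelled cuprizone and 2 labelled mock. Cuprizone is a copper chelator that kills oligodendrocytes and strips myelin when it is mixed into the food. All 4 libraries carry the genotype GFAP-Cre+/- Rpl22HA/wt, the label of 3 weeks and the label Batch1, so the mock mice have the same Cre and tagged allele as the treated mice. The design text of the series describes male mice aged 8 to 9 weeks at the start, chow with 0.2% cuprizone or normal chow, dissection of the corpus callosum, and collection at 5, 5.5 and 7 weeks. Those times differ from the label of 3 weeks and the labels name only brain as the tissue, and neither difference could be settled. Cre is driven by the GFAP promoter, and the HA tag on the ribosomal protein Rpl22 lets an antibody recover ribosomes from any cell in which the allele has recombined, whatever its type. Whether a library holds 1 animal or a pool is not given in the sources used here, so the p-values reflect only how these 4 libraries scatter, which may be technical.

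Astrocytes take up glucose from the blood, break much of it down to pyruvate in the cytosol and release part of it as lactate, which neurons and oligodendrocytes can take up and burn. They also hold nearly all of the glycogen of the brain, a branched store of glucose that is built by glycogen synthase and branching enzyme and mobilised by glycogen phosphorylase. Pyruvate enters the citric acid cycle through pyruvate dehydrogenase, which is switched off by pyruvate dehydrogenase kinases and on again by phosphatases. Several steps have isoforms that differ between cell types, so that Aldoc and Eno1 are known as astrocyte forms and Eno2, Slc2a3 and Slc16a7 as neuron forms.

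Library totals ran from 21209517 to 23822620 counts. The summed level of 15 astrocyte markers was 0.342% and 0.397% of counts in cuprizone replicates 1 and 2. In mock replicates 1 and 2 it was 0.565% and 0.611%. Of the 15, 8 were lower in both cuprizone libraries, 0 higher in both and none at 0. Over all genes tested, 18.9% were lower and 25.7% higher in both. The 14 neuron markers summed to more than the astrocyte markers in every library, at 1.73% and 1.69% in cuprizone and 1.49% and 1.56% in mock. Neuronal transcripts were thus well represented in libraries labelled as astrocytes. The lists hold different genes and the sums are not per kilobase, so they do not show which cell type gave more RNA. The 12 oligodendrocyte markers summed to 1.07% to 1.55%. Markers of microglia and of endothelium were near 0, at most 0.00545% and 0.00177% of counts, with Itgam, Cdh5 and Abcb1a at 0 in every library. In bulk RNA, fewer cells of a type and less RNA per cell cannot be told apart.

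The 4 members with the lowest unadjusted p between cuprizone and mock belong to different steps, 3 of them lower and 1 higher in cuprizone. Ppp1r3c, which brings protein phosphatase to glycogen and so favours glycogen synthesis, was at 33.7 ± 1.83 CPM (counts per 1000000 counts of the library) in cuprizone and 72.9 ± 1.06 in mock (SD, n = 2 each). The glucose carrier gene Slc2a3 was at 56.7 ± 1.38 CPM against 103 ± 16.1, and Aldoc at 3104 ± 203 against 4337 ± 602. Pdk2, a kinase that switches pyruvate dehydrogenase off, was at 322 ± 91.9 CPM in cuprizone and 190.2 ± 16.9 in mock. For all 4 the cuprizone and the mock libraries did not overlap.

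None of the 35 genes passed edgeR's quasi-likelihood test with Benjamini-Hochberg adjustment over all 15816 genes tested at a threshold of 0.05, where 13 genes (0.0822%) passed. At an unadjusted p below that threshold, 2 members were higher in cuprizone (Pfkm and Pdk2) and 3 were lower (Aldoc, Slc2a3 and Ppp1r3c), while 5.73% and 7.04% of all genes tested were higher and lower by the same rule. DESeq2, the alternative test, called Pdk2 higher and Aldoc, Slc2a3 and Ppp1r3c lower, 1 and 3 of 35, where 1.68% and 2.88% of all genes were called higher and lower. The adjusted p from DESeq2 was 0.0353 for Pdk2, 0.0174 for Aldoc, 0.00512 for Slc2a3 and 0.000555 for Ppp1r3c. Neither limma-voom (0.297% of all genes called) nor edgeR with bias-adjusted dispersions (0.322%) called any of the 35.

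Counted by whether the libraries overlapped, 13 members were higher in both cuprizone libraries than in both mock libraries, and 7 were lower in both. Over all genes tested, 25.7% were higher and 18.9% lower in this way. After scaling with TMM factors, an alternative added after the values were seen, the counts were 10 and 8, beside 21.9% and 22.5% of all genes. After that scaling the lower count was at the share of all genes and the higher count a little above it, and the median log2 fold of the 35 was 0.03 against 0.00 over all genes tested. Without cuprizone replicate 2 the median of the 35 was -0.06.

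**Figure D1:**
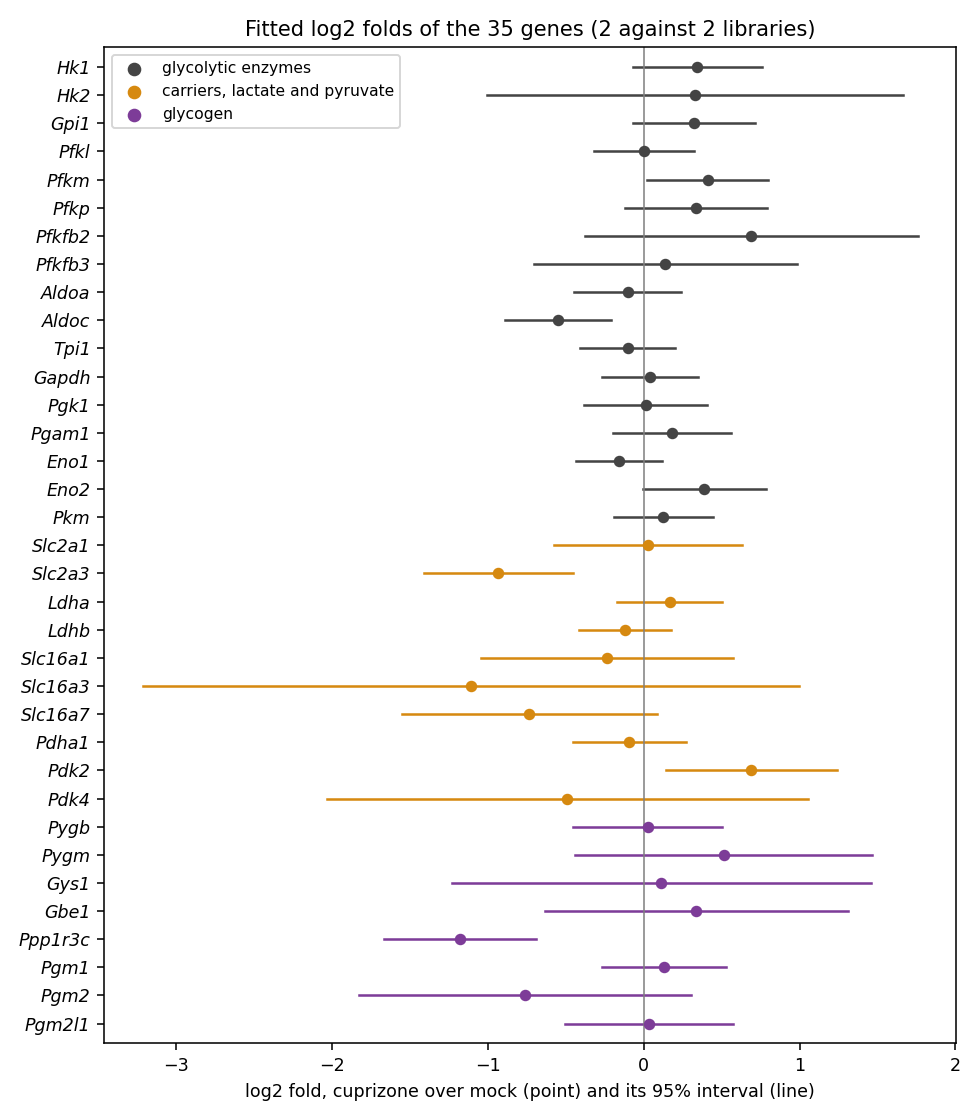
Fitted log2 folds of the 35 genes, cuprizone over mock, on the horizontal axis, with 1 row per gene; points are edgeR estimates from 2 against 2 libraries, lines their 95% intervals, and colours the 3 groups of genes. Ppp1r3c at -1.18, Slc2a3 at -0.93 and Aldoc at -0.55 lie left of 0 and Pdk2 at 0.69 right of 0 with intervals that do not reach it, and the widest interval is that of Slc16a3.

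The sequences before the annotated starts of 3 of these 4 genes are shown because glycolytic genes are a textbook set of targets of the hypoxia-inducible factor HIF, whose response element has the core letters ACGTG. They were read from RefSeq promoters on GRCm38.p6, 5′ to 3′ on the strand of the gene, and each is shown only up to the first base that GENCODE M21 annotates as exon. Capitals mark ACGTG or its reverse complement CACGT, which overlap where the letters read CACGTG.
Ppp1r3c, - strand, chr19:36736654-36736854: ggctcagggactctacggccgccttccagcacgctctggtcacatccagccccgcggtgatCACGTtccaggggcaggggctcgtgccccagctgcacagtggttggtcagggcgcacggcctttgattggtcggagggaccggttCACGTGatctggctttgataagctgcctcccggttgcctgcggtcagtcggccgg
Pdk2, - strand, chr11:95041372-95041621: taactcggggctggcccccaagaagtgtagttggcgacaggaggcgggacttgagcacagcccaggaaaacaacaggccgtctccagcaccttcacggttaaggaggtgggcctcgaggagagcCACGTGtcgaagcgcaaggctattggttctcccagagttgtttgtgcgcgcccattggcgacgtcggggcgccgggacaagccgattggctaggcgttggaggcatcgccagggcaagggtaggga
Aldoc, + strand, chr11:78322823-78322967: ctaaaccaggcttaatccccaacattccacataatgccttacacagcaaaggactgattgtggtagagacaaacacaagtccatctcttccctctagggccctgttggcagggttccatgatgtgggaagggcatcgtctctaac
The Ppp1r3c window held 3 matches, of which 2 overlap, the Pdk2 window held 2 overlapping matches, and the Aldoc window held none. Pdk2 and Aldoc each have another annotated start, and neither of those windows held a match.

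Of the 35 members, 33 had at least 1 promoter in the RefSeq table, 48 promoters in all, and neither Slc2a3 nor Slc16a7 was among them. The 250 bases before the start held ACGTG on either strand in 23 of the 48 (47.9%), against 5444 of 32851 promoters of all genes (16.6%) and 3069 of 14797 promoters of the genes tested here (20.7%). One match before Aldoa is counted in a pair of overlapping windows. By gene, 19 of the 33 members had at least 1 such promoter, against 4998 of 27025 genes in the table (18.5%), among them Hk2, Ldha, Pgk1, Pgam1, Pfkfb3, Slc2a1, Slc16a3, Pygb and Pygm. The median content of G and C was 60.2% in the member promoters, 59.6% in those of the genes tested and 52.4% over all promoters. Matches were found before genes with higher, lower and overlapping values alike, and a match is a run of letters, not a bound site.

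Across genes, levels per kilobase spread over 3 orders of magnitude. On the scale of CPM per kilobase of exon (RPKM), means in mock were highest for Aldoa (1614), Aldoc (1329) and Ldhb (1122), the heart-type subunit of lactate dehydrogenase that favours the use of lactate. Tpi1 (413), Pkm (346) and Eno1 (344) followed, and Gapdh was at 203 RPKM. The lowest were Slc16a7 (1.63), Pfkfb2 (1.21), Hk2 (0.934) and Slc16a3 (0.757). The order was much the same in cuprizone, with Aldoc and Ldhb changing places, and Pdk2 in place 12 in cuprizone and 16 in mock. The 35 genes together held 2.00% and 2.17% of all counts in cuprizone and 2.17% and 2.06% in mock, so the groups overlapped.

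**Figure D2:**
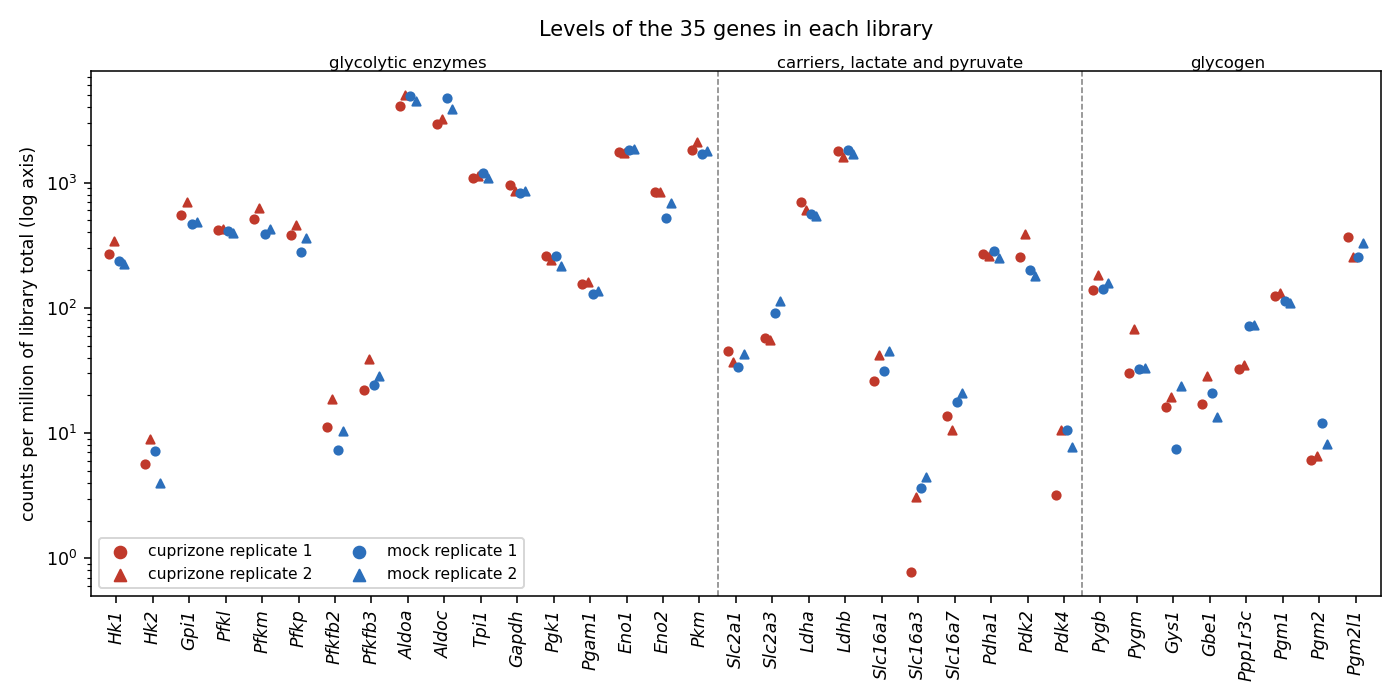
Level of each of the 35 genes in each library, as CPM of the library total on a log axis; red marks cuprizone, blue mock, circles replicate 1 and triangles replicate 2, and dashed lines part the 3 groups of genes. Aldoa and Aldoc are the highest at 2960 to 5054 CPM, Slc16a3 the lowest at 0.779 to 4.43 CPM.

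Along the pathway, folds were described for the steps before aldolase and for those from aldolase on, and the difference between these groups was not tested. Of the 8 genes that act before aldolase, a division made after the values were seen, all 8 had a positive log2 fold, with a median of 0.33 and a range from 0.00 to 0.69, and 6 were higher in both cuprizone libraries (25.7% of all genes), or 5 after TMM scaling (21.9%). Without cuprizone replicate 2 the median of the 8 was 0.14 and 5 of 8 folds were positive, and without mock replicate 2 it was 0.35 with 6 of 8 positive. Over the whole 17, 10 genes were higher and 2 lower in both cuprizone libraries, beside 25.7% and 18.9% of all genes. After TMM scaling the counts were 7 and 2, beside 21.9% and 22.5%. Of the 9 genes from aldolase on, 5 had a positive and 4 a negative log2 fold, with a median of 0.01. Over all genes tested, 7918 of 15816 folds were positive. Only Pfkm was below an unadjusted p of 0.05 among the 8, so this is a description of these libraries.

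Hexokinase traps glucose inside the cell by phosphorylating it. Hk1, the main brain form, was at 272 and 341.5 CPM in cuprizone replicates 1 and 2 and at 237 and 224 CPM in mock replicates 1 and 2, higher in both cuprizone libraries (log2 fold 0.34, SE 0.17, edgeR adjusted p = 0.483). Hk2, the inducible form, was at 5.68 and 8.98 CPM against 7.15 and 4.01, so its groups overlapped. Per kilobase, Hk1 made up 95.9% to 97.5% of the sum of both in every library. Gpi1, which turns glucose phosphate into fructose phosphate, was at 552 and 699.6 CPM in cuprizone and 467 and 487 CPM in mock (log2 fold 0.32, SE 0.16, edgeR adjusted p = 0.485).

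Phosphofructokinase commits sugar to glycolysis, and its 3 subunit genes differed in how they stood. Pfkm was at 510 and 625 CPM in cuprizone and 388 and 427 CPM in mock, with both cuprizone libraries above both mock libraries (log2 fold 0.41, SE 0.16, 95% interval 0.02 to 0.80, edgeR adjusted p = 0.364). Pfkp was at 383.5 and 462 CPM against 277 and 363 (log2 fold 0.33, SE 0.19, edgeR adjusted p = 0.543). Pfkl, the liver form that astrocytes also carry, was at 420.2 and 427.5 CPM against 412 and 394, and its log2 fold of 0.00 turned from positive to negative with upper-quartile scaling. Per kilobase, Pfkm was the main subunit, at 62.5% and 65.5% of the 3 in cuprizone and 58.5% and 59.8% in mock.

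Pfkfb2 and Pfkfb3 encode bifunctional enzymes that make or remove the sugar phosphate that activates phosphofructokinase, and Pfkfb3 is known as the form that sustains high glycolysis in astrocytes. Pfkfb3 was at 22.0 and 38.8 CPM in cuprizone and 24.1 and 28.6 CPM in mock, so its groups overlapped (log2 fold 0.14, SE 0.35). Pfkfb2 was at 11.1 and 18.6 CPM against 7.28 and 10.3, higher in both cuprizone libraries (log2 fold 0.69, SE 0.44, edgeR adjusted p = 0.600), and without cuprizone replicate 2 its log2 fold was 0.26. Some 17.4% of the Pfkfb2 exon bases are shared with a same-strand annotated gene that has no counts, and 2.12% with the well-expressed Yod1 on the other strand.

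Aldolase splits the phosphorylated sugar into a pair of smaller pieces, and its astrocyte form stood lower in cuprizone. Aldoc lies at chr11:78322968-78327781 on the plus strand of GRCm38 and had 2960 and 3248 CPM in cuprizone replicates 1 and 2 and 4763 and 3911 CPM in mock replicates 1 and 2. Both cuprizone libraries were below both mock libraries, and the lower mock library was replicate 2 (log2 fold -0.55, SE 0.14, 95% interval -0.89 to -0.21, edgeR adjusted p = 0.229). The astrocyte markers were lower as a sum in the same libraries, and the median log2 fold of the 15 was -0.34. A sum of counts follows its most abundant genes, so a ratio to it is not a ratio to the typical marker. As a percentage of the astrocyte marker sum, a ratio chosen after the values were seen, Aldoc was 86.6 and 81.8 in cuprizone and 84.2 and 64.0 in mock, so the groups overlapped on that scale, and the part of the markers in the result was not tested further. Aldoa, the form found in most cells, was at 4121 and 5054 CPM against 4926 and 4469, with overlapping groups.

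For 5 further enzymes of the lower part of glycolysis, the enolases aside, log2 folds lay between -0.10 and 0.18. Tpi1, which interconverts the products of aldolase, had a log2 fold of -0.10 (SE 0.13), Gapdh, which makes the first NADH, 0.04 (SE 0.13), and Pgk1, which makes the first ATP, 0.01 (SE 0.16). Their 95% intervals ran from -0.41 to 0.20, from -0.27 to 0.35 and from -0.38 to 0.41. Pgam1, the mutase before enolase, was at 154 and 161 CPM against 129 and 136, separate but with a log2 fold of only 0.18 (SE 0.16). Pkm, the pyruvate kinase gene, was at 1835 and 2117 CPM against 1681 and 1777 (log2 fold 0.12, SE 0.13), and the table counts its splice forms together.

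Enolase has a glial and a neuronal form, and their folds had opposite signs. Eno1 was at 1765 and 1712 CPM in cuprizone and 1829 and 1872 CPM in mock, lower in both cuprizone libraries by little (log2 fold -0.16, SE 0.11, edgeR adjusted p = 0.645). Eno2 was at 837 and 836 CPM against 526 and 691, higher in both (log2 fold 0.39, SE 0.16, edgeR adjusted p = 0.404). The neuron markers summed to 17260 and 16920 CPM in cuprizone and 14890 and 15590 CPM in mock. Of the 14, 6 were higher in both cuprizone libraries and 4 lower in both, beside 25.7% and 18.9% of all genes tested. As a percentage of that sum, a ratio chosen after the values were seen, Eno2 was 4.85 and 4.94 in cuprizone and 3.54 and 4.43 in mock. Eno1 has a near-identical copy, Eno1b, at 21.4 and 141 CPM in cuprizone replicates 1 and 2 and 14.7 and 16.0 CPM in mock. The split of reads between Eno1 and Eno1b is uncertain in cuprizone replicate 2, and so is the separation of the Eno1 groups.

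The 10 genes for carriers, lactate and pyruvate had 3 positive and 7 negative folds with a median of -0.18. Of the 5 carrier genes among them, a subset taken after the values were seen, 4 had a negative log2 fold, and 3 were lower in both cuprizone libraries (Slc2a3, Slc16a3 and Slc16a7), as were 18.9% of all genes. The median of the 5 was -0.73, and -0.44 without cuprizone replicate 1. Slc2a3, known for glucose uptake by neurons and also found in microglia, lies at chr6:122727809-122801640 on the minus strand. It was at 57.7 and 55.7 CPM in cuprizone replicates 1 and 2 and 91.8 and 114.5 CPM in mock replicates 1 and 2, with wide separation between the groups (log2 fold -0.93, SE 0.20, 95% interval -1.41 to -0.46, edgeR adjusted p = 0.180). The 14 neuron markers were mixed, with 6 higher and 4 lower in both cuprizone libraries (25.7% and 18.9% of all genes). Their median log2 fold was 0.09. As a percentage of their sum, Slc2a3 was 0.334 and 0.329 in cuprizone and 0.617 and 0.735 in mock. The 12 microglia markers summed to 21.5 and 19.7 CPM in cuprizone and 40.5 and 54.5 CPM in mock. Of the 12, 7 were lower and 1 higher in both cuprizone libraries, beside 18.9% and 25.7% of all genes. The part of the neuron and microglia markers in the result was not tested.

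Slc2a1 encodes the glucose carrier of astrocytes and of the blood vessel wall. It was at 45.2 and 36.9 CPM in cuprizone and 33.9 and 42.8 CPM in mock, with overlapping groups (log2 fold 0.03, SE 0.25, 95% interval -0.57 to 0.63). The 10 endothelial markers summed to 5.13 and 17.7 CPM in cuprizone and 10.6 and 11.6 CPM in mock, and their part in the level of Slc2a1 was not tested. The ratio of Slc2a1 to Slc2a3 counts was 0.784 and 0.662 in cuprizone against 0.369 and 0.373 in mock.

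The monocarboxylate carriers move lactate and pyruvate across the cell membrane. Slc16a1, the MCT1 gene of astrocytes, oligodendrocytes and endothelium, was at 26.1 and 41.8 CPM in cuprizone and 31.2 and 45.0 CPM in mock, with overlapping groups. Slc16a7, the high-affinity MCT2 gene of neurons, was at 13.6 and 10.7 CPM against 17.8 and 20.8, lower in both (log2 fold -0.73, SE 0.34, edgeR adjusted p = 0.443). Slc16a3, the low-affinity MCT4 gene that exports lactate, had only 17 and 74 counts against 80 and 94 (log2 fold -1.11, SE 0.87). Its fold rests on cuprizone replicate 1, since without that library it was -0.44. Per kilobase, Slc16a1 was 76.3% to 86.4% of the sum of the 3 carriers in every library.

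Basigin, the membrane chaperone that carries MCT1 and MCT4 to the cell surface, was not one of the 35 but stood out among the further carrier genes. Bsg, at chr10:79704491-79711969, was at 482 and 448 CPM in cuprizone and 862 and 851 CPM in mock, with tight pairs (log2 fold -0.95, SE 0.13, 95% interval -1.26 to -0.64, edgeR adjusted p = 0.0864). It passed in the tests with DESeq2 (adjusted p = 1.67e-07), limma-voom (0.0289) and edgeR with bias-adjusted dispersions (0.0421). Embigin, the corresponding partner of MCT2, was at 23.4 and 23.7 CPM against 35.1 and 29.9 (Emb, log2 fold -0.53, SE 0.26, edgeR adjusted p = 0.471). Over the 16 tested carriers and chaperones, members included, 11 folds were negative, 8 genes were lower in both cuprizone libraries and 1 was higher in both, beside 18.9% and 25.7% of all genes. The astrocyte markers were lower in the same libraries, at 0.342% and 0.397% of counts against 0.565% and 0.611%, and their part in the Bsg difference was not tested.

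Slc2a4, the insulin-responsive glucose carrier gene, had 29 and 85 counts in cuprizone replicates 1 and 2 and 0 in both mock libraries. Its mean in cuprizone was 17.7 times a floor of 3 counts per mock library. That floor covers counting error only, not the scatter between libraries. Slc2a4 had an adjusted p of 0.00781 in DESeq2 and 0.210 in edgeR. It was named after its values were seen, because its level of 2.45 CPM in cuprizone lies under the limit set for naming genes.

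Lactate dehydrogenase interconverts pyruvate and lactate, and its subunits differed little. Ldha, the muscle-type subunit that favours lactate, was at 699 and 599.8 CPM in cuprizone and 564.5 and 538 CPM in mock, higher in both (log2 fold 0.17, SE 0.14, edgeR adjusted p = 0.711). Ldhb was at 1793 and 1610 CPM against 1820 and 1703, with overlapping groups (log2 fold -0.12, SE 0.12). Per kilobase Ldha made up 15.6% and 15.0% of the 2 in cuprizone and 12.8% and 13.0% in mock.

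At the gate between glycolysis and mitochondria, the kinase gene Pdk2 stood higher in cuprizone and the enzyme it acts on did not. Pdk2, at chr11:95026258-95041354 on the minus strand, was at 257 and 387 CPM in cuprizone replicates 1 and 2 and 202 and 178 CPM in mock replicates 1 and 2, with both cuprizone libraries above both mock libraries and cuprizone replicate 2 the highest (log2 fold 0.69, SE 0.23, 95% interval 0.14 to 1.24, edgeR adjusted p = 0.300). Without cuprizone replicate 2 its log2 fold was 0.35. Pdha1, the catalytic subunit of pyruvate dehydrogenase, was at 268 and 261 CPM against 286 and 251 (log2 fold -0.09, SE 0.15). Pdk4, the kinase induced by fasting, was at 3.21 and 10.5 CPM against 10.7 and 7.73, and only cuprizone replicate 1 stood apart.

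Among the 12 further genes of pyruvate entry, 9 folds were positive and the median was 0.12. Of the 12, 5 were higher in both cuprizone libraries and 0 lower in both, beside 25.7% and 18.9% of all genes tested. Pdp1, the phosphatase that switches pyruvate dehydrogenase on again, was at 214 and 199 CPM in cuprizone and 111.5 and 125.5 CPM in mock (log2 fold 0.73, SE 0.16, edgeR adjusted p = 0.191), and DESeq2 called it with an adjusted p of 0.00633. The kinase gene and the phosphatase gene, with opposite actions on the same enzyme, were thus both higher. Pdk3, another kinase, was at 67.7 and 63.5 CPM against 48.7 and 41.1 (log2 fold 0.48, SE 0.21, edgeR adjusted p = 0.419). Pcx, the pyruvate carboxylase of astrocytes that refills the citric acid cycle, was at 32.1 and 59.5 CPM against 27.1 and 26.5 (log2 fold 0.71, SE 0.34, edgeR adjusted p = 0.467), and without cuprizone replicate 2 its log2 fold was 0.18.

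Glycogen genes gave 6 positive and 2 negative folds with a median of 0.07, and 1 gene stood far from the rest. Leaving out cuprizone replicate 2 gave a median of -0.15, and leaving out mock replicate 1 gave -0.09. Ppp1r3c, at chr19:36731731-36736653 on the minus strand, was at 32.4 and 35.01 CPM in cuprizone replicates 1 and 2 and 72.1 and 73.6 CPM in mock replicates 1 and 2. Each pair lay close together and far from the other, at a ratio of 0.441 between the groups in the fit (log2 fold -1.18, SE 0.20, 95% interval -1.67 to -0.69, edgeR adjusted p = 0.129). As a percentage of the astrocyte marker sum it was 0.949 and 0.882 in cuprizone and 1.28 and 1.20 in mock, so the groups remained apart on that scale with a ratio of 0.738. That sum follows the most abundant markers, and the median log2 fold of the 15 was -0.34. The part of the lower astrocyte markers in the result was not tested further.

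**Figure D3:**
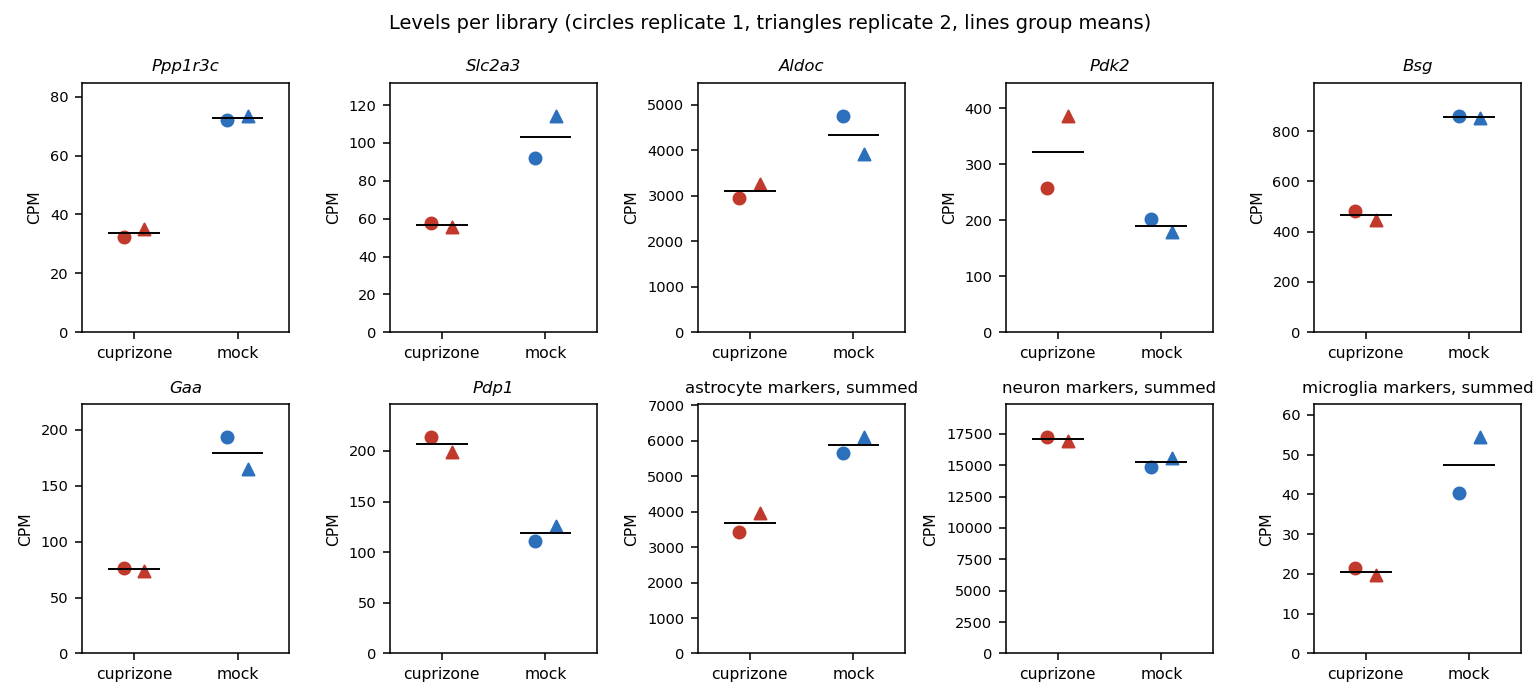
CPM of the library total (vertical axes, each from 0) for 7 genes and for the summed markers of 3 cell types, by group; circles are replicate 1, triangles replicate 2 and lines group means. Ppp1r3c, Slc2a3, Aldoc, Bsg and Gaa lie lower in both cuprizone libraries and Pdk2 and Pdp1 higher, beside astrocyte markers at 3418 to 3970 CPM in cuprizone and 5654 to 6111 CPM in mock.

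Glycogen synthase and phosphorylase, the enzymes of building and release, gave no separate groups. Gys1, the synthase, was at 16.2 and 19.3 CPM in cuprizone and 7.46 and 23.9 CPM in mock, and without mock replicate 1 its log2 fold of 0.11 became -0.50. It shares 6.47% of its exon bases with Ruvbl2 on the other strand, which had more counts than Gys1 in every library. Gbe1, the branching enzyme, was at 16.9 and 28.7 CPM against 20.9 and 13.5. Pygb, the brain phosphorylase, was at 138 and 183.5 CPM against 142.5 and 159 (log2 fold 0.02, SE 0.20). Pygm, the muscle phosphorylase that astrocytes also make, was at 30.2 and 67.7 CPM against 32.8 and 32.8, so that cuprizone replicate 2 alone set its log2 fold of 0.51, which was -0.20 without it.

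Phosphoglucomutase links glucose phosphate to glycogen. Pgm1, the highest of the 3 forms per kilobase though not in CPM, was at 124 and 132 CPM in cuprizone and 114 and 109 CPM in mock (log2 fold 0.13, SE 0.17), and 13.6% of its exon bases overlap Itgb3bp on the other strand. Pgm2 was at 6.04 and 6.55 CPM against 12.1 and 8.20, lower in both (log2 fold -0.76, SE 0.44, edgeR adjusted p = 0.555). Pgm2l1, a brain form that makes a sugar bisphosphate cofactor, was at 371 and 255 CPM against 254 and 328, with overlapping groups. Pgm1 and Pgm2 are named as in GENCODE M21, on chromosomes 4 and 5.

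Of the 19 tested further glycogen genes, 11 folds were positive and 8 negative. Gaa, the lysosomal enzyme that digests glycogen by a route separate from phosphorylase, lies at chr11:119267887-119285454. It was at 76.2 and 74.2 CPM in cuprizone and 194 and 165 CPM in mock, the lowest unadjusted p of that list (log2 fold -1.32, SE 0.18, 95% interval -1.75 to -0.90, edgeR adjusted p = 0.0845). Like Bsg it passed with DESeq2 (adjusted p = 5.19e-08), limma-voom (0.0389) and bias-adjusted dispersions in edgeR (0.0409). Gyg, the primer protein of glycogen, was at 78.3 and 84.3 CPM against 60.7 and 54.8 (log2 fold 0.42, SE 0.19, edgeR adjusted p = 0.429). Phka2, a subunit of the kinase that activates phosphorylase, was at 9.62 and 9.03 CPM against 4.21 and 4.20 (log2 fold 1.08, SE 0.46, edgeR adjusted p = 0.409).

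Ratios between isoforms of 1 step, computed within each library and so free of scaling, separated the groups in 5 of 7 pairs. No matching share was taken over other pairs of genes, so 5 of 7 is a description of these libraries. The log2 ratio of Aldoc to Aldoa was -0.48 and -0.64 in cuprizone and -0.05 and -0.19 in mock, a difference of -0.44. That of Eno1 to Eno2 was 1.08 and 1.03 against 1.80 and 1.44, a difference of -0.56, so that in both pairs the form known from astrocytes had the smaller share in cuprizone. Slc2a1 to Slc2a3 went the other way, at -0.35 and -0.59 against -1.44 and -1.42, a difference of 0.96. Ldha to Ldhb differed by 0.29 (0.28 with a pseudocount of 2 counts) and Pfkfb3 to Pfkfb2 by -0.58. Slc16a1 to Slc16a7 and Pygm to Pygb overlapped between the groups. In a 2-sided exact permutation test each of the 5 separate pairs had p = 0.333 (0.466 adjusted over 7 pairs), the smallest value that 2 against 2 libraries allow.

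**Figure D4:**
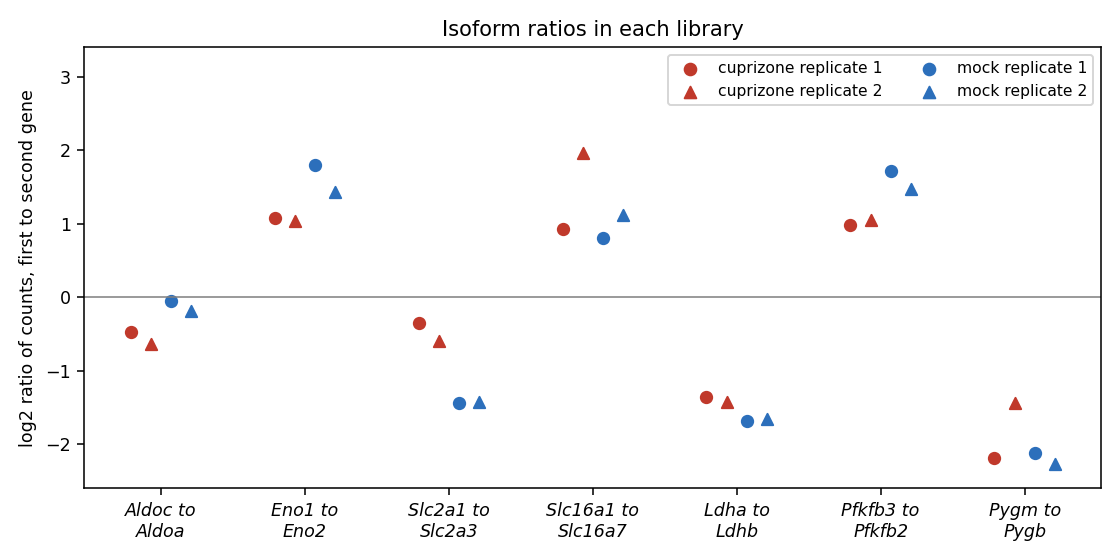
Log2 ratio of the counts of the first to the second gene (vertical axis) in each library for 7 isoform pairs; red marks cuprizone, blue mock, circles replicate 1 and triangles replicate 2. The red and blue marks are apart in 5 pairs, most widely for Slc2a1 to Slc2a3, and mixed for Slc16a1 to Slc16a7 and Pygm to Pygb.

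Neighbouring pathways were read from 7 lists with 100 genes, 85 of them tested, and 0 of the 85 passed edgeR's adjusted threshold. At an unadjusted p below 0.05, 5 were higher and 5 lower, beside 5.73% and 7.04% of all genes, and DESeq2 called 4 (Bsg, Gaa, Pdp1 and Slc2a4), beside 4.55% of all genes. These counts are near those shares. Of the 10 genes for HIF and its regulators, 6 folds were positive with a median of 0.05. In both cuprizone libraries 4 of the 10 were higher and 2 lower, beside 25.7% and 18.9% of all genes tested. Hif1a, the oxygen-regulated subunit, was at 81.7 and 152 CPM in cuprizone and 39.9 and 73.8 CPM in mock (log2 fold 0.97, SE 0.40, edgeR adjusted p = 0.385), and without cuprizone replicate 2 its log2 fold was 0.44. Its partner Arnt was at 22.8 and 21.8 CPM against 5.65 and 12.4 (log2 fold 1.24, SE 0.45, edgeR adjusted p = 0.337). Egln2, an enzyme that marks HIF for destruction, was at 57.9 and 76.9 CPM against 101 and 86.7 (log2 fold -0.55, SE 0.22, edgeR adjusted p = 0.383). Epas1, another gene of that list, was at 55.1 and 67.5 CPM against 72.1 and 92.3, lower in both (log2 fold -0.49, SE 0.22, edgeR adjusted p = 0.433). It was named after its values were seen. HIF is regulated mainly at the protein level, which was not measured.

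The 7 tested pentose phosphate genes had 5 positive folds and a median of 0.09. G6pdx, the first enzyme of that route, was at 35.9 and 62.6 CPM in cuprizone and 30.3 and 31.2 CPM in mock (log2 fold 0.61, SE 0.32, edgeR adjusted p = 0.502), and without cuprizone replicate 2 its log2 fold was 0.14. Pgls, the next enzyme, was at 43.5 and 37.1 CPM against 51.6 and 52.8 (log2 fold -0.44, SE 0.22), and Tkt, a later enzyme of the route, overlapped between the groups. The 16 citric acid cycle genes had 9 positive folds and a median of 0.03. In both cuprizone libraries 8 of them were higher and 4 lower, beside 25.7% and 18.9% of all genes tested. Dlst, of the oxoglutarate dehydrogenase complex, was at 90.1 and 90.2 CPM against 66.0 and 54.3 (log2 fold 0.51, SE 0.20, edgeR adjusted p = 0.353). Sdha, of complex II, was at 707 and 731 CPM against 542 and 566 (log2 fold 0.31, SE 0.13, edgeR adjusted p = 0.395), and Suclg2 was at 17.9 and 30.6 CPM against 37.6 and 35.2 (log2 fold -0.65, SE 0.33).

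Among the 10 tested further glycolysis enzymes, 6 folds were negative with a median of -0.28. Pgam2, the muscle mutase, was at 10.6 and 7.09 CPM in cuprizone and 13.6 and 15.4 CPM in mock, and Ldhd, which acts on D-lactate, at 7.60 and 13.5 CPM against 4.93 and 6.08. Adpgk, which phosphorylates glucose with ADP, was at 16.9 and 18.7 CPM against 24.1 and 18.8. The edgeR adjusted p of these 3 was 0.490, 0.535 and 0.744. Pfkfb1 had 27 and 31 counts in mock and 0 in both cuprizone libraries (edgeR adjusted p = 0.244). It was named after its values were seen. The mean in mock was 10.2 times a floor of 3 counts per library, which covers counting error only.

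The members varied less between replicates than genes did in general, and the comparisons with all genes below were not matched for level. The median difference between replicates, as the size of the log2 ratio of replicate 2 to replicate 1, was 0.27 in cuprizone and 0.19 in mock over the 35, against 0.43 and 0.36 over all genes tested. In cuprizone 24 of the 35 were higher in replicate 2, and the largest gaps were those of Slc16a3 in cuprizone (2.00) and Gys1 in mock (1.68). For 17 of the 35 genes the difference between groups was larger than the difference between replicates in either group, as it was for 30.8% of all genes tested, among them Ppp1r3c, Slc2a3, Aldoc, Pdk2, Eno2 and Pfkm. Across the 35 genes the log2 fold had a Spearman correlation of 0.18 with exon length and of 0.06 with mean CPM, against 0.14 and -0.01 over all genes tested, and genes of the same libraries are not independent.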

How the data were processed

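RNA bound to HA-tagged ribosomes was sequenced in 4 libraries, 2 cuprizone and 2 mock. The authors deposited raw counts per Ensembl gene, 1 table per library, not normalized. Per the submitters' processing notes, FastQC 0.11.9, STAR 2.5.4b and featureCounts 1.6.0 were used with GRCm38, also named mm10. How strand and multi-mapping reads were handled, and the annotation release, is not given in the sources used here, so reads of near copies and overlapping genes can be dropped or shared. Per the labels, RNA of an integrity number above 8 went into low-input polyadenylated libraries.

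Symbols, coordinates and exon lengths came from GENCODE M21 (GRCm38), with a record for 55230 ids. Aldoa matched 2 ids, and the id with the large counts was used. The other held 22 and 37 counts in cuprizone and 14 and 34 in mock. The test was that of edgeR 4.0.16 under R 4.3.3 (TMM, filterByExpr, robust glmQLFit, glmQLFTest, 2-sided, Benjamini-Hochberg over 15816 genes, no covariate). The SE is the log2 fold divided by the square root of F. Levels are CPM on library totals, and genes are compared per kilobase (RPKM). Isoform ratios used a pseudocount of 0.5 count. A count of 0 allows up to 0.126 to 0.141 CPM (3 counts), for counting error only. Replicate pairs differed beyond sampling noise. DESeq2 1.42.0 and limma 3.58.1 served as alternatives, and the scripts were tested on simulated data. The filter of the DESeq2 fit and the dispersion step of the bias-adjusted fit were set to match the main test after call counts had been seen, which left the members called the same.

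The members and lists were chosen with earlier results of these data known. All 35 members are named. Of each other list, called genes are named, and otherwise up to 3 genes of the lowest p with a mean of at least 5 CPM. The result of 1 gene of these lists is not reported here. The motif search and marker ratios were added after values were seen.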

Additional observations from a re-analysis of the deposited data

How the results depend on the processing

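Over 13 alternatives, 20 of the 35 members kept the sign of their fold, among them Ppp1r3c, Slc2a3, Aldoc and Pdk2, and 24 of 455 alternative values over 15 members turned sign. Scaling with RLE, upper-quartile or library-total factors left 13 genes, 0 members and 0 pathway genes called. The numbers of genes, members and pathway genes called were 191, 1 (Ppp1r3c, adjusted p = 0.0396 in edgeR) and 2 with no filter; 68, 0 and 2 with only genes of mean CPM 1 or more; 51, 0 and 2 with bias-adjusted dispersions; 720, 4 and 4 with DESeq2; and 47, 0 and 2 with limma-voom. Where pathway genes numbered 2, they were Bsg and Gaa. Leaving out 1 library at a time gave 5 to 123 genes, 0 members and 0 to 1 pathway genes (Bsg, without cuprizone replicate 1). The cause was not tested. With the replicate block, 10 genes, 0 members and 0 pathway genes were called. The labels give both groups the numbers 1 and 2. The deviations of the libraries numbered 1 had a correlation of -0.012 across genes, so no shared deviation was seen over genes as a whole. That value cannot exclude a pairing of the libraries that acts on some genes.

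Without 1 library each, log2 folds that turned sign ran from -0.06 to 0.80 for Hk2, -0.02 to 0.04 for Pfkl, -0.34 to 0.50 for Pfkfb3, -0.27 to 0.04 for Aldoa, -0.03 to 0.10 for Gapdh, -0.10 to 0.16 for Pgk1, -0.13 to 0.23 for Slc2a1, -0.63 to 0.08 for Slc16a1. They ran from -0.16 to 0.01 for Pdha1, -1.60 to 0.13 for Pdk4, -0.21 to 0.22 for Pygb, -0.20 to 0.98 for Pygm, -0.50 to 1.20 for Gys1, -0.11 to 0.69 for Gbe1, -0.25 to 0.27 for Pgm2l1 and -0.02 to 0.35 for Tkt. With upper-quartile scaling that of Pfkl was -0.00021. The difference in the log2 ratio of Slc16a1 to Slc16a7 ran from -0.03 to 1.00. The difference in summed share of counts, cuprizone minus mock, ran from -0.130 to 0.054 percentage points for the glycolytic enzymes and was 0.087 with the 50 most abundant genes left out of the total, which hold 5 members, against -0.038 in full. For the glycogen genes it ran from -0.0017 to 0.0075. Mean levels under 10 CPM, such as those of Slc16a3, Hk2, Pdk4 and Pgm2, gave SEs of 0.44 to 0.87 on the log2 scale. A lone library left in a group was assumed to vary like the others.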
